A study of Mus musculus with 10 samples.

Results

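The genes described here are 9 markers of the mesoderm core of the first pharyngeal arch (PA1) and of the jaw muscle progenitors that form from it, namely *Tbx1*, *Tcf21*, *Msc*, *Lhx2*, *Myf5*, *Myod1*, *Myog*, *Actc1* and *Des*. They were chosen by name, and all 9 were present among the 22114 protein-coding genes counted. Each library was made from RNA of the PA1 of 1 male mouse embryo at E10.5, labelled C57BL/6 and from a line back-crossed to C57BL/6J, and the groups were 5 wild-type and 5 *Grhl2-/-* embryos. The null allele of *Grhl2*, which encodes an epithelial transcription factor, is carried by every cell of the *Grhl2-/-* embryos, which came from crosses of heterozygous parents. Arches are named below by their sample titles, WT1-566, WT1-568, WT3-588, WT5-566 and WT8-568 for the wild-type and KO1-588, KO1-628, KO2-566, KO2-568 and KO3-604 for the *Grhl2-/-* embryos. Values are CPM, the counts of a gene scaled to library size after TMM normalization, and libraries held between 22188454 and 28801378 counted reads.

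The muscles of the jaw form from mesoderm that fills the core of PA1, and not from the somites that supply the trunk and limbs. In the head, TBX1, TCF21, MSC and LHX2 act before the muscle determination factors MYF5 and MYOD1, whereas PAX3, the upstream regulator of trunk muscle, is not needed. MYOG then drives differentiation, and cells switch on structural genes such as *Actc1*, which encodes the cardiac and early skeletal muscle alpha-actin, and *Des*, which encodes the muscle intermediate filament desmin. Several of these genes are also active elsewhere in the head, *Tbx1* in the endoderm and ectoderm of the pharynx and *Lhx2* in the forebrain and eye.

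*Grhl2* was at 35.6 ± 3.29 CPM (SD, n = 5) in wild-type and at 4.53 ± 1.45 CPM in *Grhl2-/-* arches. The genes that mark the neural crest mesenchyme of the arch were abundant in every library, since 8 of them summed to between 923.8 and 1464 CPM, and 3 Hox genes of more caudal arches summed to at most 1.83 CPM. Transcripts of other tissues of the head were present in unequal amounts. The sum over 16 genes of cranial sensory neurons was 58.8 CPM in WT1-566 and 49.9 CPM in WT1-568, between 694 and 1186 CPM in the other 3 wild-type arches and between 389.6 and 1536 CPM in the *Grhl2-/-* arches. Fold changes of the 9 genes and their pairs are therefore also given without WT1-566 and WT1-568. In whole arches, fewer cells of a type and less RNA per cell cannot be told apart.

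The sequences just before the start sites of *Actc1*, *Myog* and *Des* are shown because these 3 genes act last in the muscle programme, and because *Actc1* differed the most of the 9 between genotypes. They are from RefSeq on GRCm38.p6 and were available for 7 of the 9 genes, with *Msc* and *Myod1* missing. Capitals mark E-boxes (CANNTG), which bind MYF5, MYOD1, MYOG, MSC and TCF21 among other basic helix-loop-helix factors, and the CArG box, which binds serum response factor. Each window holds the 250 bases before the start site and is written along the strand of the gene.
Actc1, chr2:114052876-114053125, minus strand: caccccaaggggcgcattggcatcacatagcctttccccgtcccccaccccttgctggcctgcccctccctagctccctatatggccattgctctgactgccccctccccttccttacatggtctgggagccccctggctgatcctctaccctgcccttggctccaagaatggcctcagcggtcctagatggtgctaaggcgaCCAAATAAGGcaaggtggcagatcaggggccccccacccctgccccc
Myog, chr1:134289754-134290003, plus strand: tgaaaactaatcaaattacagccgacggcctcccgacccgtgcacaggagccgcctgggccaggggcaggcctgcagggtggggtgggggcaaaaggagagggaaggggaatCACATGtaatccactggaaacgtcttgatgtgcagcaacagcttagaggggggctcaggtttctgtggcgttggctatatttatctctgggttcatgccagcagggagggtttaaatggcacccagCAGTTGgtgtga
Des, chr1:75360042-75360291, plus strand: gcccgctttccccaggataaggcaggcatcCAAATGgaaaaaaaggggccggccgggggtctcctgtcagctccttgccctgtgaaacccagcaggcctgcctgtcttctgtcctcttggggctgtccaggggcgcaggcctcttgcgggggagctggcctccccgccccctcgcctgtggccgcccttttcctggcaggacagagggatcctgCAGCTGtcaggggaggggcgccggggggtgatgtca
The *Actc1* window had 1 CArG box, CCAAATAAGG, 47 bases before the start site and no E-box. A CArG box was found in 1.47% of 32851 promoter windows of this length. The *Myog* window had E-boxes 138 and 12 bases before the start site, CACATG and CAGTTG, and the *Des* window had them 220 and 36 bases before it, CAAATG and CAGCTG. E-boxes of this loose form were in 66.2% of all windows. The GRHL consensus AACCGGTT, searched on both strands, was in 0.116% of all windows and in none of those of the 7 genes. These are matches of letters only. The RefSeq starts of *Actc1* and *Myog* lie inside the GENCODE genes, which begin further upstream, so the CArG box of *Actc1* and the *Myog* E-box nearest the start are within the GENCODE genes.

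None of the 9 genes passed FDR below 0.01 between genotypes with limma-voom, a threshold that 1.96% of the 14561 genes tested passed, with 1.09% lower and 0.879% higher in *Grhl2-/-* PA1. At an unadjusted p below 0.05 there was 1 higher gene, *Actc1*, and 1 lower gene, *Tcf21*, where 14.2% of all genes were higher and 14.3% lower, so these counts are not above the background. With edgeR 0 of the 9 genes passed, beside 2.08% of all genes, and with DESeq2 *Actc1* alone did, where 7.37% of genes passed. At FDR below 0.05, which 7.71% of genes passed with limma-voom, *Actc1* was again the one gene called. Of the 9 genes, 4 had a positive and 5 a negative log2 fold change, with a median of -0.02, beside 0.01 over all genes tested. Without WT1-566 and WT1-568 the counts at FDR below 0.01 were also 0 and the median was -0.04. Fewer genes of all passed in that fit, 90 lower and 19 higher of 14525 tested, beside 158 and 128 of 14561. FDR values of that fit given below are to be read beside these counts. The log2 fold changes without these arches were 0.04 for *Tbx1*, -0.93 for *Tcf21*, -0.30 for *Lhx2*, -0.15 for *Myf5*, -0.29 for *Myod1*, 0.37 for *Myog* and -0.04 for *Des*, and those of *Msc* and *Actc1* are given with these genes.

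**Figure D1:**
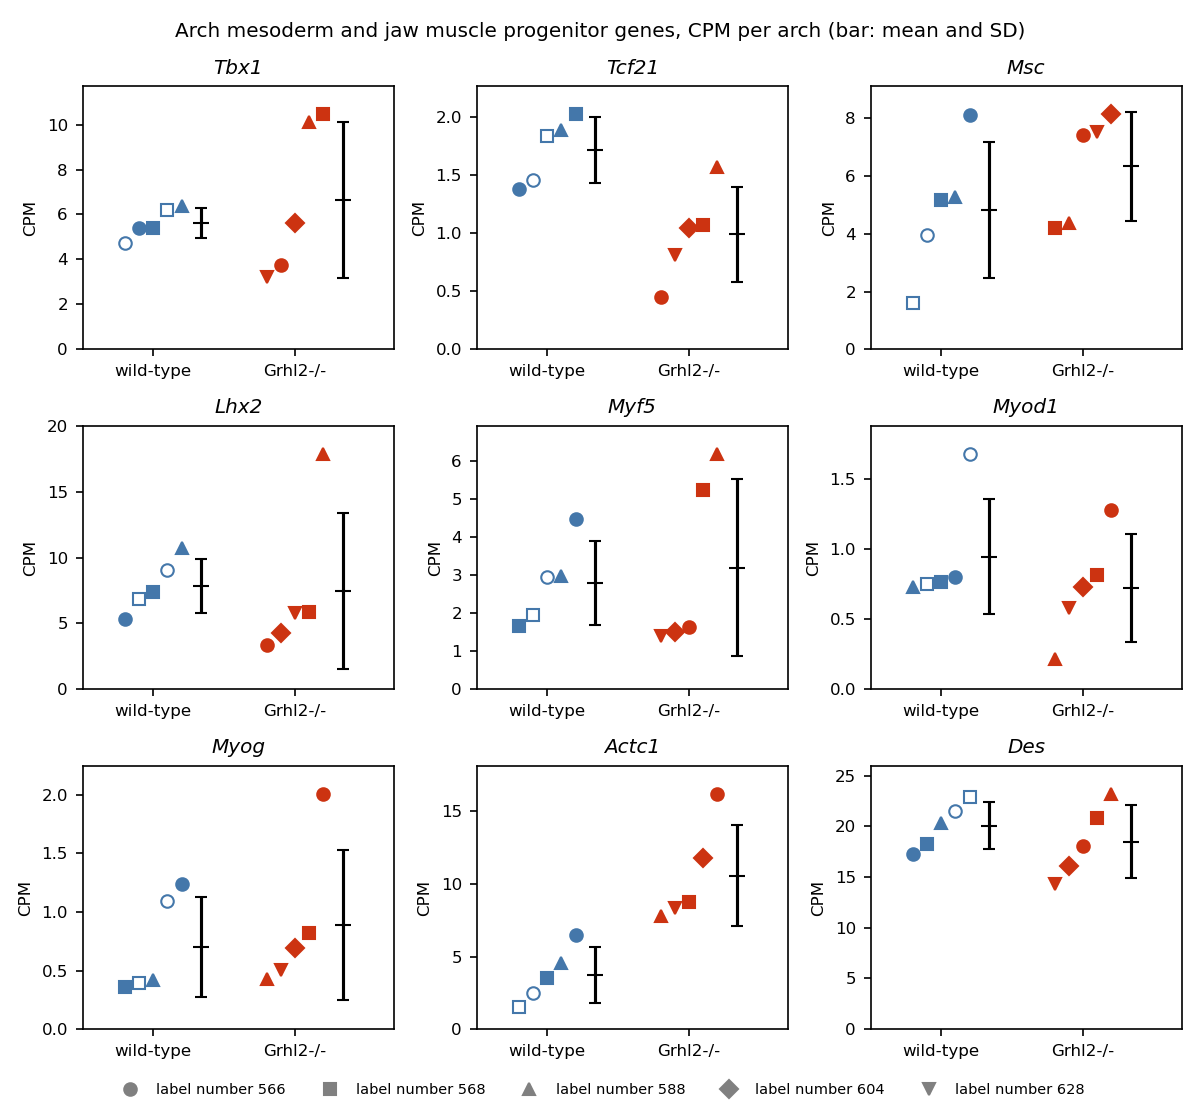
CPM of the 9 genes in each arch, 1 panel per gene and 1 point per arch, with wild-type arches in blue, *Grhl2-/-* arches in red, open symbols for WT1-566 and WT1-568, and bars for the mean and SD over 5 arches. Marker shapes stand for the number at the end of the sample title. The 5 *Grhl2-/-* arches lie above all wild-type arches for *Actc1*, and those of *Tbx1* and *Myf5* spread wider than the wild-type arches.

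*Tbx1* (GRCm38 chr16:18580979-18590671), a T-box factor at the head of the arch mesoderm programme, averaged 5.62 CPM in the wild-type group and 6.64 CPM in the *Grhl2-/-* group, which had a much wider spread. The wild-type arches held 4.72, 6.18, 6.38, 5.38 and 5.41 CPM in WT1-566, WT1-568, WT3-588, WT5-566 and WT8-568. The *Grhl2-/-* arches held 10.1 CPM in KO1-588, 3.22 in KO1-628, 3.77 in KO2-566, 10.5 in KO2-568 and 5.60 in KO3-604. KO1-588 and KO2-568 thus lay above all wild-type arches, KO1-628 and KO2-566 lay below them, and 1 *Grhl2-/-* arch lay within their range. The coefficient of variation was 52.1% in *Grhl2-/-* and 11.9% in wild-type PA1, and the log2 fold change was 0.08 (95% CI -0.60 to 0.77, FDR 0.891). Its direction turned when KO1-588 or KO2-568 was left out, to -0.13 in each case.

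The high *Tbx1* arches KO1-588 and KO2-568 were also high in some other genes. *Foxc2*, a forkhead gene of head mesoderm, was at 31.3 and 34.1 CPM in them and between 18.9 and 20.2 CPM in the other *Grhl2-/-* arches. This gene was named after its values were seen. The 20 tested head mesoderm regulators among which it was listed went the other way as a sum. They summed to 987.4 CPM in KO1-588 and 1064 CPM in KO2-568, and to between 1162 and 1255 CPM in the other *Grhl2-/-* arches. The same arches had the lowest sensory neuron sums of the *Grhl2-/-* group, at 389.6 and 454 CPM, and the highest *Cldn6*, at 18.3 and 19.0 CPM beside 8.87 to 10.2 CPM. *Cldn6* encodes a claudin of epithelial tight junctions. The part of these differences in the level of *Tbx1* was not tested.

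*Tcf21* (chr10:22817281-22820174), which encodes a basic helix-loop-helix factor of jaw muscle progenitors, was lower on average in *Grhl2-/-* PA1 but did not pass the FDR threshold. Wild-type arches held 1.45 CPM in WT1-566, 1.83 in WT1-568, 1.88 in WT3-588, 1.38 in WT5-566 and 2.02 in WT8-568. The level was 1.57 CPM in KO1-588, 0.81 in KO1-628, 0.45 in KO2-566, 1.07 in KO2-568 and 1.04 in KO3-604. KO1-588 lay within the wild-type range and the other 4 *Grhl2-/-* arches lay below it. The log2 fold change was -0.89 (SE 0.27, 95% CI -1.49 to -0.28), with an FDR of 0.0689 with limma-voom. An exact two-sided permutation test of log2 CPM over the 252 assignments of arches gave p = 0.0238, unadjusted. The gene was counted from 13 to 54 reads per arch, so single values carry sizeable counting error. Across the 19 alternatives the log2 fold change stayed between -1.09 and -0.62 and the FDR between 0.0247 and 0.199.

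*Msc* (chr1:14753346-14755992), also called musculin, encodes a repressor closely related to TCF21, and it differed more between embryos than between genotypes. In order of rising sensory neuron sum, the wild-type arches WT1-568, WT1-566, WT3-588, WT8-568 and WT5-566 held 1.62, 3.95, 5.26, 5.17 and 8.11 CPM of *Msc*. In the same order KO1-588, KO2-568, KO3-604, KO1-628 and KO2-566 held 4.39, 4.20, 8.15, 7.52 and 7.44 CPM. In each genotype, the 2 arches with the fewest neuronal transcripts were the 2 lowest in *Msc*, and the part of the neuronal tissue in the *Msc* level was not tested. The log2 fold change was 0.50 (95% CI -0.29 to 1.30, FDR 0.380), and it was -0.015 without WT1-566 and WT1-568. Exons of *Msc* overlap those of *Gm9947* on the opposite strand, which hold 19% of its 2579 stretches of 50 bases. The library kit keeps the strand and the name of the deposited count table points to counting on the reverse strand, which would keep reads of *Gm9947* apart, but the methods do not state the setting.

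*Lhx2* (chr2:38339281-38369733), a LIM homeobox gene, was dominated by 1 arch. KO1-588 held 17.9 CPM, whereas KO1-628, KO2-566, KO2-568 and KO3-604 held 5.81, 3.39, 5.87 and 4.25 CPM. Wild-type arches held 9.04, 6.87, 10.7, 5.31 and 7.35 CPM in WT1-566, WT1-568, WT3-588, WT5-566 and WT8-568. Apart from KO1-588, the *Grhl2-/-* arches were below the wild-type median of 7.35 CPM. The log2 fold change was -0.30 (95% CI -1.12 to 0.51, FDR 0.627), and with 1 arch left out it ranged from -0.70 without KO1-588 to -0.075 without KO2-566.

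KO1-588 was also the arch with the most transcripts of the forebrain and eye field. The 7 tested genes of that list summed to 80.8 CPM in KO1-588 and to between 23.2 and 35.0 CPM in the other *Grhl2-/-* arches. Among wild-type arches WT3-588 had both the highest sum, 24.4 CPM, and the highest *Lhx2*, and the other 4 had sums of 13.8 to 16.2 CPM. Below these 2 arches *Lhx2* did not follow the sum, since WT1-566 had the lowest sum and the second highest wild-type *Lhx2*. *Rax*, an early eye field gene, was at 5.74 CPM in KO1-588 and at no more than 1.36 CPM in the others. *Rax* was named after its values were seen. The part of this tissue in the *Lhx2* level was not tested.

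**Figure D2:**
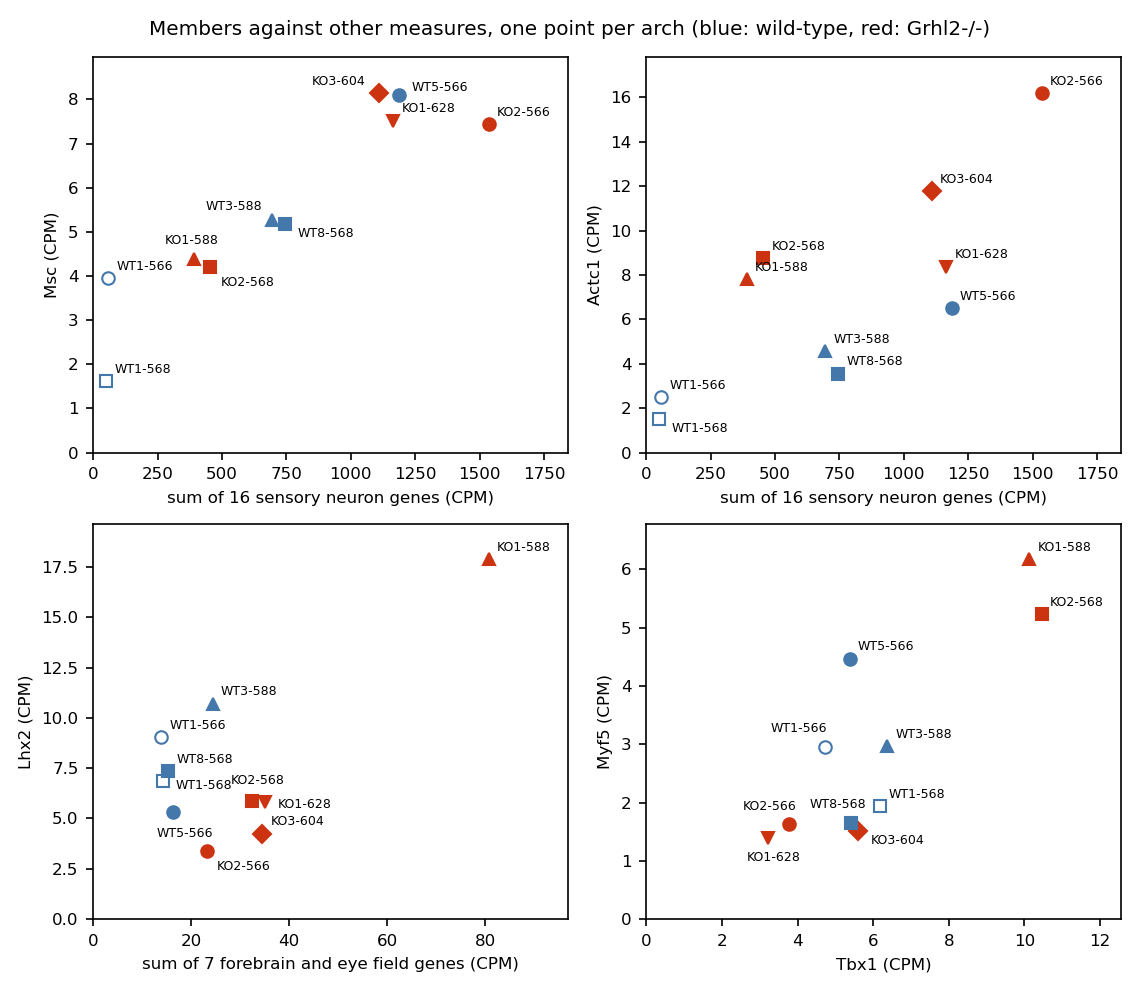
CPM of *Msc* and *Actc1* against the summed CPM of 16 sensory neuron genes, of *Lhx2* against the summed CPM of 7 forebrain and eye field genes, and of *Myf5* against *Tbx1*, with 1 labelled point per arch, wild-type in blue and *Grhl2-/-* in red. *Msc* is lowest where neuronal transcripts are fewest, KO1-588 stands apart for *Lhx2* at 17.9 CPM, and KO1-588 and KO2-568 stand apart for both *Tbx1* and *Myf5*.

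The 3 muscle regulatory factors measured, *Myf5*, *Myod1* and *Myog*, were all low and all overlapped between genotypes. *Myf5* (chr10:107482908-107486134), the first of them to act in the arch, was at 2.95, 1.94, 2.96, 4.47 and 1.66 CPM in WT1-566, WT1-568, WT3-588, WT5-566 and WT8-568. It was at 6.17 CPM in KO1-588 and 5.23 in KO2-568, above every wild-type arch, and at 1.39, 1.63 and 1.51 CPM in KO1-628, KO2-566 and KO3-604, below every wild-type arch. The 2 high arches were the same as for *Tbx1*, and none of the 5 *Grhl2-/-* arches lay inside the wild-type range of *Myf5*. The log2 fold change of *Myf5* was -0.02 (95% CI -1.02 to 0.97, FDR 0.979), and its sign turned under 9 of the 19 alternatives.

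*Myod1* (chr7:46376474-46379099), which commits cells to the muscle fate, had 6 to 37 reads per arch. It was at 1.68 CPM in WT1-566 and between 0.73 and 0.80 CPM in the other wild-type arches, so that 1 wild-type embryo stood apart. *Grhl2-/-* arches ranged from 0.21 CPM in KO1-588 to 1.28 CPM in KO2-566, with a median of 0.73 CPM. The log2 fold change was -0.47 (95% CI -1.36 to 0.43, FDR 0.477), and it was -0.09 without KO1-588 and -0.73 without KO2-566. *Myog* (chr1:134289989-134292548), which is switched on at differentiation, had 9 to 58 reads per arch. WT1-566 and WT5-566 were at 1.09 and 1.24 CPM, the other wild-type arches were between 0.36 and 0.42 CPM, and *Grhl2-/-* arches ranged from 0.43 CPM in KO1-588 to 2.01 CPM in KO2-566. Its log2 fold change was 0.34 (95% CI -0.70 to 1.39, FDR 0.672), and it was -0.017 without KO2-566. Each of these 3 intervals crossed 0 and reached beyond 1 on the log2 scale in 1 direction, so a difference of that size is not excluded by these data.

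*Actc1* (chr2:114047282-114053548) was the one gene of the 9 whose groups did not overlap. Wild-type arches held 2.50 CPM in WT1-566, 1.51 in WT1-568, 4.57 in WT3-588, 6.51 in WT5-566 and 3.55 in WT8-568. The level was 7.81 CPM in KO1-588, 8.37 in KO1-628, 16.2 in KO2-566, 8.75 in KO2-568 and 11.8 in KO3-604. Every *Grhl2-/-* arch lay above the highest wild-type arch, as was the case for 4.22% of all genes tested, while 4.66% had all *Grhl2-/-* arches below all wild-type arches and 0 of the 9 genes did. The log2 fold change was 1.60 (SE 0.34, 95% CI 0.85 to 2.36), a 3.04-fold difference, with an FDR of 0.0202 with limma-voom. The exact two-sided permutation test gave p = 0.00794, the smallest that 252 assignments allow.

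The *Actc1* difference was smaller without the arches with few neuronal transcripts. WT1-566 and WT1-568 were also the lowest in *Actc1*, and KO2-566, with the most neuronal transcripts, was the highest. Between genotypes the order differed, since KO1-588 and KO2-568 had fewer neuronal transcripts than WT3-588, WT5-566 and WT8-568 and more *Actc1*. Without WT1-566 and WT1-568 the log2 fold change was 1.08 (95% CI 0.42 to 1.74, FDR 0.122). The part of the neuronal tissue in the difference was not tested. No stretch of 50 bases of *Actc1* exons was shared with another gene, so the other actin genes do not contribute reads through identical sequence of that length.

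*Des* (chr1:75360329-75368579) overlapped between genotypes. It was at 21.5, 22.9, 20.3, 17.3 and 18.3 CPM in WT1-566, WT1-568, WT3-588, WT5-566 and WT8-568, and at 23.2, 14.3, 18.1, 20.8 and 16.1 CPM in KO1-588, KO1-628, KO2-566, KO2-568 and KO3-604. KO1-588 was the highest and KO1-628 the lowest of the 10 arches, so the *Grhl2-/-* range enclosed that of the wild-type. Its log2 fold change was -0.12 (95% CI -0.40 to 0.15, FDR 0.550), the narrowest interval of the 9 genes. Exons of *Des* overlap the antisense gene *Gm15179*, which shares 4.61% of its stretches of 50 bases.

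**Figure D3:**
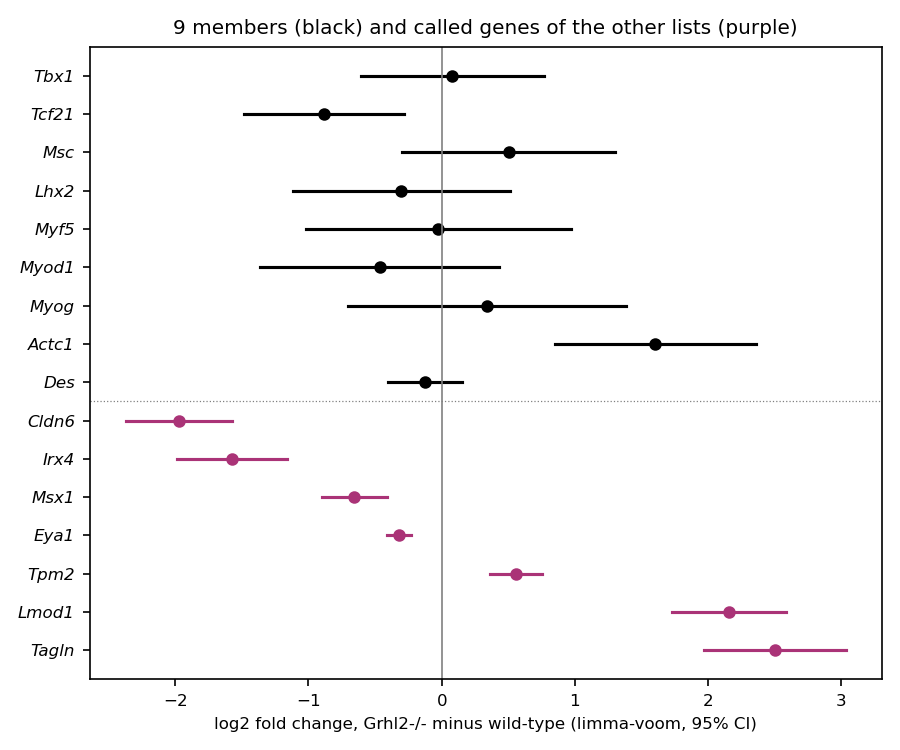
Log2 fold change of *Grhl2-/-* over wild-type PA1 with its 95% confidence interval from limma-voom, for the 9 genes in black and, in purple, for the genes of the other lists that passed FDR below 0.01. Of the 9 genes, the intervals of *Tcf21* and *Actc1* do not cross 0, and neither passed the FDR threshold.

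Per kilobase of exon, *Des* was the most abundant of the 9 genes in wild-type PA1, at 5.34 ± 0.61 CPM per kb (SD, n = 5), ahead of *Actc1* at 2.30 ± 1.19. *Msc*, *Lhx2*, *Tbx1* and *Myf5* followed at 1.89, 1.79, 1.60 and 1.34 CPM per kb. *Tcf21*, *Myod1* and *Myog* were the least abundant, at 0.73, 0.51 and 0.47 CPM per kb. Only the first step of this order, from *Des* to *Actc1*, exceeded the spread between arches, since the ranges of all other neighbours overlapped. In *Grhl2-/-* PA1 *Actc1* came first with 6.54 ± 2.16 CPM per kb and *Des* second with 4.92 ± 0.95, and here the ranges of these 2 genes overlapped while *Des* and *Msc*, at 2.49 ± 0.74, did not. With coding length in place of exon length, *Actc1* fell from rank 2 to rank 6 in wild-type PA1 and *Des* stayed at rank 1, so the order below *Des* depends on the length used.

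**Figure D4:**
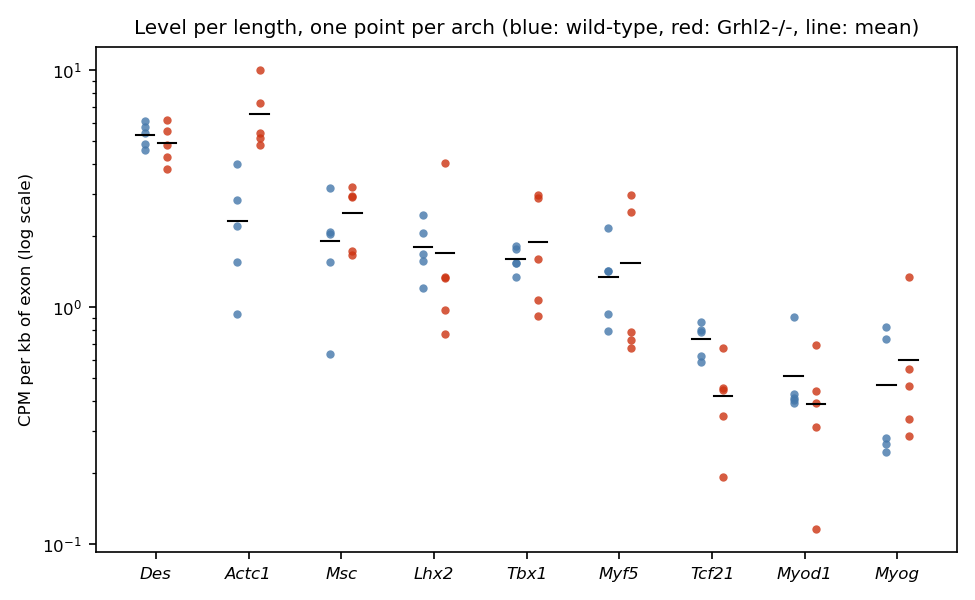
CPM per kilobase of exon on a log axis for the 9 genes in order of their wild-type mean, with 1 point per arch, wild-type in blue and *Grhl2-/-* in red, and lines at the means. *Des* leads in wild-type arches at 5.34 and *Actc1* in *Grhl2-/-* arches at 6.54.

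Among the 7 genes with at least 10 reads in every arch, 21 pairs were compared over the 10 arches after each genotype was centred on its mean log2 CPM. *Msc* and *Des* varied in opposite directions, with Pearson r = -0.753 (exact permutation p = 0.00215, adjusted over 21 pairs 0.0452) and Spearman rho = -0.879 (exact permutation p = 0.00319, adjusted 0.0671). Without the 2 arches farthest from the median of *Msc*, r was -0.794, and it was -0.884 within wild-type and -0.872 within *Grhl2-/-* arches. *Msc* and *Actc1* varied together, with r = 0.883 (exact permutation p = 0.00431, adjusted 0.0452) and rho = 0.733 (exact permutation p = 0.0295, adjusted 0.282), and with r = 0.805 after the same 2 arches were left out. Within genotypes r was 0.963 in wild-type and 0.607 in *Grhl2-/-* arches. Both genes were lowest among wild-type arches in WT1-566 and WT1-568, and without these 2 arches r was 0.693 for *Msc* and *Actc1* (exact permutation p = 0.0917, adjusted 0.201) and -0.834 for *Msc* and *Des* (exact permutation p = 0.0417, adjusted 0.201). With *Myod1* and *Myog* added, which gave 36 pairs, no pair passed an adjusted p of 0.05. *Tbx1* and *Myf5*, which did not pass, had r = 0.778 (exact permutation p = 0.0970, adjusted 0.251), with 0.929 within *Grhl2-/-* and -0.210 within wild-type arches. Other pairs that did not pass differed more between genotypes. Within *Grhl2-/-* and wild-type arches r was -0.984 and 0.598 for *Msc* and *Myf5*, and 0.676 and -0.829 for *Tcf21* and *Myf5*. Differences of r between genotypes were not tested.

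The genes whose pattern over the 10 arches, centred by genotype, was most like that of each of these 7 genes were sought among the 12691 genes with a mean of at least 1 CPM. For *Tbx1* they were *Cnksr1*, *Cldn6* and *Marveld2*, with r from 0.949 to 0.955. For *Myf5* they were *Lmx1a*, *Shisa2* and *Myocd* (r from 0.951 to 0.970), for *Tcf21* *Crocc*, *Sowahb* and *Zfpm1* (0.966 to 0.991), and for *Msc* *Ttbk1*, *Prmt2* and *Shox2* (0.958 to 0.969). For *Lhx2* they were *Bcl2l12*, *Aldh1a7* and *Ppp2r5a* (0.949 to 0.964), for *Actc1* *Nsg2*, *6430548M08Rik* and *Atp1b1* (0.943 to 0.958), and for *Des* *Csnk1g2*, *Lypd6b* and *Fam198b* (0.937 to 0.976). The highest values among so many genes are high by selection and are given as a description. None of these 7 genes was among the 3 nearest of another, and *Myod1* and *Myog* were below the limit.

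Of 20 further regulators of head mesoderm and early muscle tested, 1 passed the threshold, *Eya1*, which encodes a transcriptional coactivator of muscle progenitors and sensory placodes. *Eya1* was between 129.7 and 148.5 CPM in wild-type and between 108.0 and 111.3 CPM in *Grhl2-/-* arches, without overlap. Its log2 fold change was -0.32 (SE 0.04, FDR 0.00113), and 18 of 19 alternatives called it. The most abundant other genes of this list, *Six4* and *Ebf3*, were at -0.20 (FDR 0.0566) and 0.02 (FDR 0.931) on the log2 fold change scale. At an unadjusted p below 0.05, 7 of the 20 genes were higher and 4 were lower, beside 14.2% and 14.3% of all genes, and the median log2 fold change of the 20 was 0.18. *Ebf1*, *Ebf2* and *Eya2*, 3 of the 7 higher genes and named after their values were seen, were lowest in WT1-566 and WT1-568, as were the neuronal genes. Their parts in that count were not tested.

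Trunk and limb muscle regulators gave no calls with limma-voom among 6 genes tested, with 0 at an unadjusted p below 0.05 and 0 with edgeR or DESeq2. The most abundant of them were *Met*, *Pax3* and *Tlx1*, with log2 fold changes of -0.16, 0.19 and -0.07. Genes of committed myoblasts, cell fusion and the neuromuscular junction also gave 0 calls among 14 tested with limma-voom and edgeR, with 3 higher at an unadjusted p below 0.05 (beside 14.2% of all genes) and 1 higher with DESeq2. *Hes6*, *Rbm38* and *Megf10* led this list in abundance, with log2 fold changes of 0.15, 0.01 and 0.46. *Myf6* and *Chrna1* had too few reads to be tested.

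Of 33 sarcomere and contraction genes tested, 29 had a positive log2 fold change, with a median of 0.35 (beside 7673 of 14561 and 0.01 over all genes), and 1 passed the threshold, *Tpm2*, which encodes beta-tropomyosin of skeletal and smooth muscle. *Tpm2* was between 33.1 and 45.8 CPM in wild-type and between 48.2 and 61.7 CPM in *Grhl2-/-* arches, with a log2 fold change of 0.56 (SE 0.09, FDR 0.00426). It was called under 11 of 19 alternatives, and without WT1-566 and WT1-568 its log2 fold change was 0.44 (FDR 0.0534). *Tpm1* and *Ttn*, the other abundant genes, were at 0.37 (FDR 0.0489) and 0.16 (FDR 0.814) on the same scale. With edgeR 3 genes of the list were higher and with DESeq2 5 were, where 2.08% and 7.37% of all genes passed in either direction.

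**Figure D5:**
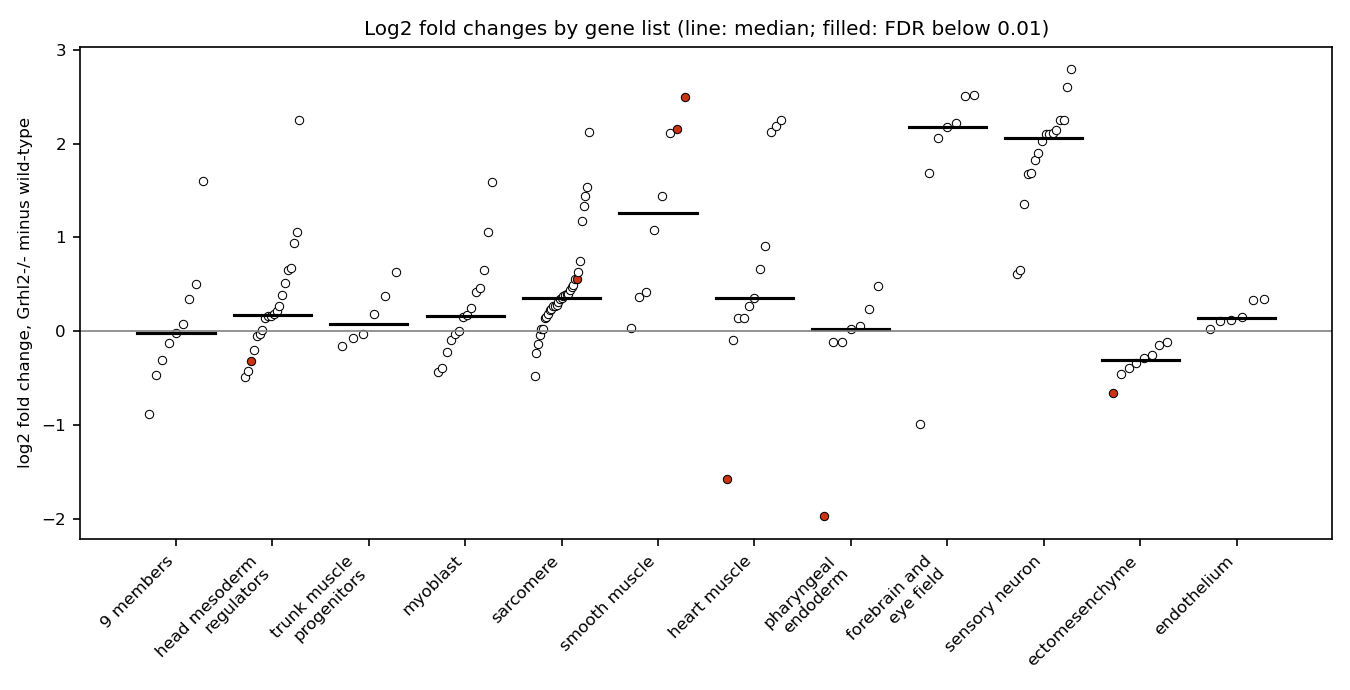
Log2 fold changes of *Grhl2-/-* over wild-type PA1 for every tested gene of 12 lists, 1 point per gene, with lines at the list medians and filled points for genes at FDR below 0.01. The 9 genes centre near 0, whereas the smooth muscle, forebrain and sensory neuron lists have medians above 1.

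Of 8 smooth muscle genes tested, 2 passed the threshold, *Tagln* and *Lmod1*, which encode an actin-binding protein and a leiomodin of smooth muscle, and both rose. All 8 had a positive log2 fold change, beside 7673 of all 14561 genes, and their median was 1.26. At an unadjusted p below 0.05 with limma-voom, 5 of the 8 were higher, beside 14.2% of all genes. Every *Grhl2-/-* arch lay above all wild-type arches for 5 of them, beside 4.22% of all genes. *Tagln* was between 1.82 and 4.21 CPM in wild-type and between 13.0 and 24.2 CPM in *Grhl2-/-* arches (log2 fold change 2.50, FDR 0.000148). *Lmod1* was 0.68 ± 0.19 CPM (SD, n = 5) in wild-type and 3.03 ± 0.32 CPM in *Grhl2-/-* arches (log2 fold change 2.16, FDR 9.50e-05). *Mylk* and *Smtn*, the most abundant of the list, were at 0.42 (FDR 0.0116) and 0.03 (FDR 0.782). The summed level of the 8 genes was 52.6 to 57.6 CPM in wild-type and 73.9 to 97.9 CPM in *Grhl2-/-* arches. It was 97.9, 97.5, 92.9, 86.9 and 73.9 CPM in KO1-588, KO2-568, KO2-566, KO3-604 and KO1-628. In the same order *Actc1* was at 7.81, 8.75, 16.2, 11.8 and 8.37 CPM. Without WT1-566 and WT1-568 *Tagln* and *Lmod1* were again called. Whether such cells carry the higher *Actc1* was not tested.

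Heart muscle genes, measured because *Actc1* is the main actin of the heart, were low in every arch. Of 17 listed, 11 had enough reads to be tested, *Nppa*, *Nppb* and *Myl2* did not, and *Bmp10* had 0 reads in all arches. The tested genes summed to between 14.0 and 19.5 CPM in wild-type and between 13.9 and 29.6 CPM in *Grhl2-/-* arches. Of the 11 genes, 9 had a positive and 2 a negative log2 fold change, beside 7673 and 6888 of all 14561 genes. Their median was 0.35, and 1 passed the threshold. This was *Irx4*, a ventricular homeobox gene that was the most abundant of the list and fell (log2 fold change -1.57, FDR 0.000667), from 6.56 ± 1.42 to 2.18 ± 0.47 CPM (SD, n = 5 each). *Irx4* was called under 18 of 19 alternatives, but not with the title number as a replicate block (FDR 0.0151). *Myh7*, a myosin heavy chain of ventricle and slow muscle, was at 1.29 ± 0.54 and 5.82 ± 2.67 CPM (log2 fold change 2.13, FDR 0.0191), and *Tbx20* had a log2 fold change of 0.67 (FDR 0.340). *Nkx2-5*, an early heart regulator named after its values were seen, was at 0.16 ± 0.11 and 0.76 ± 0.24 CPM without overlap (log2 fold change 2.25, FDR 0.0148).

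The remaining lists describe the tissue around the muscle progenitors. Pharyngeal endoderm genes, relevant to *Tbx1*, had a median log2 fold change of 0.02 over 7 tested, and 1 was called, *Cldn6*, which was at 49.1 ± 3.54 CPM (SD, n = 5) in wild-type and fell to 13.1 ± 5.06 CPM in *Grhl2-/-* arches, a log2 fold change of -1.97 with an FDR of 0.000102. *Foxe1* and *Shh*, the other abundant genes of that list, were at 0.48 (FDR 0.150) and -0.11 (FDR 0.696). All 8 ectomesenchyme genes had a negative log2 fold change, beside 6888 of all 14561 genes, and their median was -0.31. At an unadjusted p below 0.05 with limma-voom, 5 of the 8 were lower and 0 higher, beside 14.3% and 14.2% of all genes. Groups did not overlap for 3 of them, all lower, beside 4.66% of all genes. In this list 1 gene was called, *Msx1* (-0.66, FDR 0.00595), while *Prrx1* and *Twist1* were at -0.25 (FDR 0.116) and -0.34 (FDR 0.0189). *Msx1* was called under 11 of 19 alternatives, and without WT1-566 and WT1-568 its FDR was 0.0203.

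Counts at an unadjusted p below 0.05 in the last lists stand beside 14.2% of all genes higher and 14.3% lower at that limit. No forebrain gene passed with limma-voom, with 4 higher and 1 lower of 7 at an unadjusted p below 0.05, 1 higher with edgeR, 3 higher and 1 lower with DESeq2, and 2 higher with the title number as a replicate block. *Otx2*, *Emx2* and *Six6* led that list, at log2 fold changes of 2.06 (FDR 0.0289), -0.99 (FDR 0.0431) and 2.51 (FDR 0.0918). No sensory neuron gene passed with limma-voom or edgeR, with 3 higher of 16 at an unadjusted p below 0.05 and 1 higher with DESeq2. *Tubb3*, *Nefl* and *Nefm*, the most abundant, had log2 fold changes of 1.69, 2.10 and 2.26, and the median of the 16 genes went from 2.06 to -0.05 without WT1-566 and WT1-568. No endothelial gene passed with limma-voom or edgeR, with 4 higher of 6 at an unadjusted p below 0.05 and 2 higher with DESeq2, and *Kdr*, *Cdh5* and *Pecam1* were at 0.34, 0.11 and 0.33. Of the caudal Hox genes, *Hoxb2*, *Hoxa2* and *Hoxb3* had log2 fold changes of 1.02, 0.77 and 0.11, none of which passed with limma-voom, edgeR or DESeq2, with 1 at an unadjusted p below 0.05.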

How the data were processed

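RNA from 5 wild-type and 5 *Grhl2-/-* PA1s was sequenced as single-end reads of 50 bp from stranded libraries depleted of ribosomal RNA. STAR alignment to GRCm38 and featureCounts were run by the authors, who deposited the raw counts per gene. The name of the count table points to reverse-strand counting, which the methods do not state. Aligner versions are not given in the sources used here, and the submitters' processing notes list edgeR 3.18.1 and limma 3.32.7. A second table, which holds the authors' own comparison (fold changes and FDR), was not used.

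A gene was tested if any arch had 10 or more counts (14561 genes). Counts were normalized by TMM and fitted with limma-voom (limma 3.58.1, edgeR 4.0.16, R 4.3.3), with genotype as the only term, and p-values were adjusted by Benjamini-Hochberg over all genes tested, with a threshold of 0.01. The prior count for log2 CPM was 0.5. Embryos are separate animals, and no pair of arches of a genotype agreed within sampling noise. Alternatives tried were the quasi-likelihood test of edgeR, DESeq2 1.42.0, other normalizations, filters and weights, a replicate block and leaving out each arch. The 9 genes and all lists were chosen with earlier results of these data known. The sarcomere list shares genes with the smooth muscle and heart muscle lists. Head mesoderm regulators share genes with the trunk, heart muscle and sensory neuron lists, so counts of different lists are not independent. The genes named are the 9, every listed gene called, the 3 most abundant of each list, and the 3 nearest in pattern to each of 7 genes. *Foxc2*, *Rax*, *Ebf1*, *Ebf2*, *Eya2* and *Nkx2-5* were added after their values were seen, and *Myf6*, *Chrna1*, *Nppa*, *Nppb*, *Myl2* and *Bmp10* are named only as too low to test. Gene models are from GENCODE vM21 and promoters from RefSeq. The fits were tested on simulated data.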

Additional observations from a re-analysis of the deposited data

Results flagged for a closer look

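Of 30 groups of 5 arches examined, 2 had a sample that stood far from the other 4 by Dixon's criterion, where chance gives about 1 in 20 (1.5 of 30). *Myod1* in WT1-566 was at 0.77 on the log2 CPM scale and the next wild-type arch at -0.29, a gap of 0.894 of the group's range. WT1-566 is also 1 of the 2 arches with few sensory neuron transcripts, and the relation of the 2 facts was not tested. The summed forebrain and eye field genes in WT3-588 were at 4.61 on the log2 CPM scale beside 4.02 in the next wild-type arch, a gap of 0.714 of the range. WT3-588 had the highest *Lhx2* of the wild-type arches.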

How the results depend on the processing

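No count of called genes among the 9 changed under edgeR, other normalizations, filters, weights, the replicate block, leaving out any arch, or leaving out WT1-566 and WT1-568 together. With DESeq2 and at FDR below 0.05 the count of higher genes was 1 (*Actc1*) instead of 0. *Actc1* had a log2 fold change of 1.08 to 1.86 and an FDR of 0.000168 to 0.122 over 19 alternatives. The sign turned for *Msc* without WT1-566 and WT1-568 (-0.015), an alternative chosen after seeing the data. It also turned for *Lhx2* (0.019) and *Des* (0.035) with the replicate block. For *Myf5* it turned with edgeR (0.19), DESeq2 (0.19) and the replicate block (0.45). KO3-604 and KO1-628 share their block with no wild-type arch, so they add nothing to the genotype estimate of that fit. Among *Grhl2-/-* arches they were the lowest in *Myf5* and *Des*, whereas KO2-566 was the lowest in *Lhx2*. The part of this in the turned signs, and the cause with edgeR and DESeq2, was not tested. With 1 arch left out, *Tbx1* ranged from -0.13 to 0.28, *Myf5* from -0.35 to 0.18, *Myog* from -0.017 to 0.61, *Myod1* from -0.73 to -0.09, *Lhx2* from -0.70 to -0.075, *Msc* from 0.13 (without WT1-568) to 0.75 (without WT5-566), *Des* from -0.22 (without KO1-588) to -0.045 (without KO1-628) and *Actc1* from 1.30 to 1.86. The count of pairs of genes that passed went from 2 to 0 when genes with at least 5 reads were included and to 0 without WT1-566 and WT1-568, both chosen after seeing the data. With coding length, levels per kilobase in wild-type arches were higher for every gene, for example 14.3 for *Des* and 7.59 for *Msc*.

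The replicate block used the number at the end of each title, whose meaning the labels do not give. Deviations of same-numbered arches correlated from -0.364 to 0.54 over 5 pairs, mean 0.0881, and were not treated as pairs. Whether they share a litter or batch is not known. No wild-type title ends in 604 or 628. The genotype estimate with the block therefore rests on KO2-566, KO2-568 and KO1-588 among *Grhl2-/-* arches. Fewer genes of all passed FDR below 0.01 with it, 69 lower and 60 higher of 14561, beside 158 and 128 without it. With the block, *Eya1* (FDR 0.0126), *Tpm2* (0.0327), *Irx4* (0.0151) and *Msx1* (0.0317) lost their calls. Counts of higher genes with the block became 3 for the smooth muscle list (2 without it) and 2 for the sarcomere list (1). They became 2 for the forebrain list (0) and 1 for the heart muscle list (0). Genes shared between lists count in each, and the 2 sarcomere genes do not include *Tpm2*. *Actc1* had a log2 fold change of 1.64 (FDR 0.0412) with the block. Calls per list also differed by tool. Smooth muscle genes gave 5 higher with edgeR and with DESeq2, ectomesenchyme genes 4 lower with DESeq2, head mesoderm regulators 2 lower and 1 higher with DESeq2, and heart muscle genes 1 higher with edgeR and 2 with DESeq2. Depth limits *Myod1*, *Myog* and *Tcf21*, with 6 to 58 reads per arch.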
